A study of Mus musculus with 2 samples.

Results

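The microRNAs encoded inside the mouse Hox clusters are mmu-miR-10a, mmu-miR-10b, mmu-miR-196a, mmu-miR-196b and mmu-miR-615 (written without the species prefix below). Every probe on the array that carries one of these 5 names, with either arm of the precursor, was taken, which gave 11 of 1900 mouse miRNA probes. They comprise 4 probes for miR-10, 5 for miR-196 and 2 for miR-615. The set was chosen by the log2 differences of its members between the 2 arrays, known from an earlier look at these data, and then matched by name. The levels and folds below are therefore a description and carry no test.

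The study measured total RNA from mononuclear cells isolated from the colonic lamina propria, the connective tissue under the gut epithelium, of male Balb/c mice. One group, measured on 1 array, was germ-free and so carried no microbiota. The other, also on 1 array, was specific pathogen-free (SPF) and carried a gut microbiota without listed pathogens. The labels give neither the age of the mice nor the number of animals behind each RNA sample. With 1 array per group no difference has a replicate error.

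Hox genes encode transcription factors that lie in 4 clusters and set positional identity along the body axis, the genes at one end acting in anterior and those at the other end in posterior tissue. The miRNAs within the clusters repress Hox messenger RNAs among other targets, and miR-196 directs cleavage of the Hoxb8 messenger RNA. In immune cells miR-10a is known to target Il12b, which encodes a subunit shared by the cytokines IL-12 and IL-23, and it is expressed in regulatory T cells. miR-196b is active in blood progenitors together with Hoxa9, and posterior Hox genes are active in the wall of the hindgut.

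The mature sequences, from RefSeq on GRCm38.p6, were found for all 11 probes and are shown because the arrays compare near-identical miRNAs. Capitals mark the seed, bases 2 to 8 from the 5′ end, which pairs with targets. The 5p arms, which carried the larger differences, come first, and miR-100-5p, miR-99a-5p and let-7a-5p are given as sequence relatives.
miR-10a-5p: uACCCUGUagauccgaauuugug
miR-10b-5p: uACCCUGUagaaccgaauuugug
miR-196a-5p: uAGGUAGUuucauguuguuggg
miR-196b-5p: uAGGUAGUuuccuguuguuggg
miR-615-5p: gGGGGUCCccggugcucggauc
miR-10a-3p: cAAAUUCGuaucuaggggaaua
miR-10b-3p: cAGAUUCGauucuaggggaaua
miR-196a-1-3p: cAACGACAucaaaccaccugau
miR-196a-2-3p: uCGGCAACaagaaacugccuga
miR-196b-3p: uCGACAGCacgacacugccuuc
miR-615-3p: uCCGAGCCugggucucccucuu
miR-100-5p: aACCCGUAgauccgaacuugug
miR-99a-5p: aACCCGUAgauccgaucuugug
let-7a-5p: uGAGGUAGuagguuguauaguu

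The 5p arms of miR-10a and miR-10b share the seed ACCCUGU and differ at 1 of 23 bases, U12A with miR-10a first and positions counted from the 5′ end. Those of miR-196a and miR-196b share the seed AGGUAGU and differ at 1 of 22 bases, A12C with miR-196a first. No other mature sequence of the 1679 in the RefSeq table has either seed at bases 2 to 8. Each pair of probes may therefore bind both miRNAs of its family, which the deposited values cannot resolve, and agreement within a pair is no independent repeat. The 3p arms have no seed in common.

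The 6 genes that encode the members lie on the strand of the Hox genes around them in GENCODE M21 (GRCm38). Mir10a is on chromosome 11 at 96317165 to 96317274, between Hoxb5 and Hoxb4 and outside both. Mir10b is on chromosome 2 at 74726070 to 74726137, in introns of Hoxd3 and Hoxd4 as annotated. Its 3′ end is 3.02 kb before that of Hoxd4, and that of Mir10a 4.36 kb before that of Hoxb4, so both miR-10 genes sit beside a member of paralog group 4.

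The miR-196 genes sit between the 3′ end of a group 9 gene and that of the next posterior gene, in group 10 or 13. Mir196a-1 is on chromosome 11 at 96265164 to 96265265, between Hoxb13 and Hoxb9 and in neither. Mir196a-2 is on chromosome 15 at 102973350 to 102973434, between Hoxc10 and Hoxc9 in an intron of a long Hoxc5 gene model. Mir196b is on chromosome 6 at 52230081 to 52230165, on the minus strand, inside Hoxa9 and overlapping one of its annotated exons. Mir615 is on chromosome 15 at 103014910 to 103015001, in an intron of Hoxc5. Mir196a-1 and Mir10a thus share the Hoxb cluster, 51.9 kb apart, and Mir196a-2 and Mir615 share the Hoxc cluster, 41.5 kb apart.

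**Figure D1:**
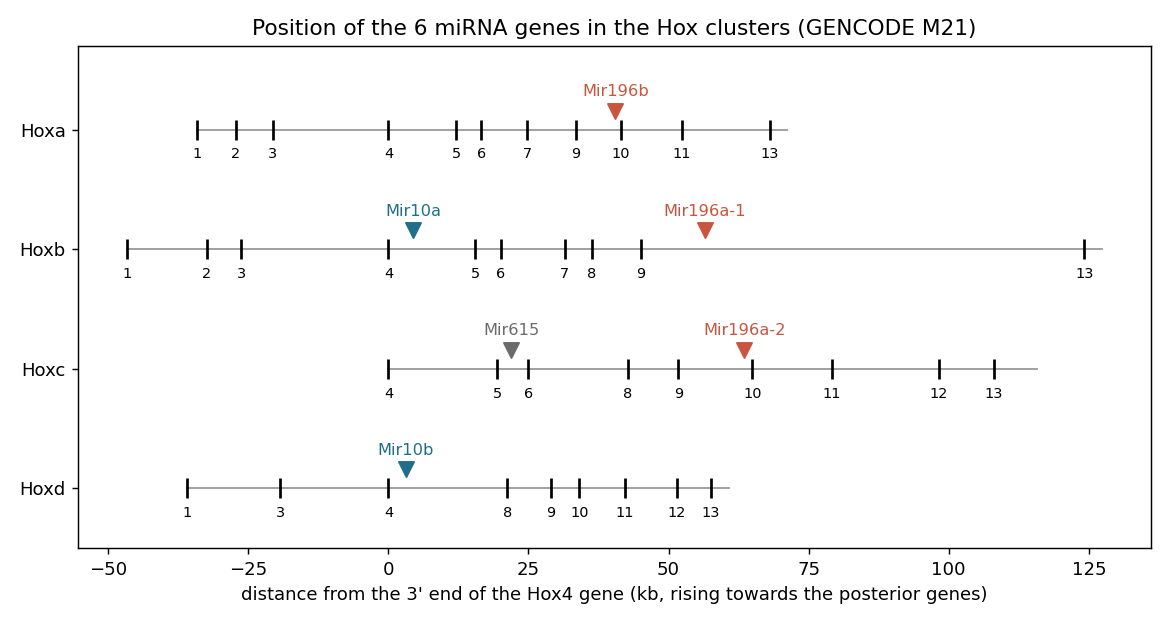
Map of the 4 Hox clusters in GENCODE M21, with the 3′ ends of the Hox genes as ticks labelled by paralog group and the 6 miRNA genes as triangles. The x axis is the distance in kb from the 3′ end of the group 4 gene, rising towards the posterior genes. Both Mir10 genes lie beside group 4 and Mir615 beside group 5. The 3 Mir196 genes lie between the tick of group 9 and that of the next posterior gene, in group 10 or 13. Mir196a-2 and Mir196b are nearer to the tick of group 10 than to that of group 9.

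The Hox target of miR-196 is visible in the reference sequence. In the 3′ UTR of Hoxb8, on the plus strand at chr11:96284888-96284909 (GRCm38), the site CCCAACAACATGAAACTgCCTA lies opposite all 22 bases of miR-196a-5p. Capitals mark the 21 bases that form Watson-Crick pairs, and the lower-case base forms the 1 G:U pair. Hoxb8 itself lies between Mir196a-1 and Mir10a. The Hox messenger RNAs were not measured on these arrays.

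The miR-10 5p arms were lower on the SPF array and the miR-196 5p arms were higher, while miR-615 hardly differed. On the log2 scale of SPF over germ-free, miR-10a-5p was at -1.13 and miR-10b-5p at -1.17, and miR-196a-5p was at 1.86 and miR-196b-5p at 1.52. Of the 8 member probes detected on both arrays, 2 were at least 2-fold higher on the SPF array, beside 1.56% of the 1471 miRNA probes detected on both. As many, 2 of 8, were at least 2-fold lower, beside 1.43% of those 1471. The members were chosen with this contrast known, so nothing is read from these shares. The miR-10 5p arms fell short of 2-fold without scaling, at -0.89 and -0.93, and without background subtraction, at -0.88 and -0.87. Without background subtraction the miR-196 5p arms fell short of it too, at 0.73 and 0.67. With local background subtraction miR-10a-5p was at 0.064, miR-615-5p at -0.30 and miR-615-3p at 0.51.

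A probe counted as detected when its intensity exceeded the array's floor, the mean plus 2 SD of the blank spots. Net intensity is the deposited spot intensity minus the mean of the blank spots, 128.5 for the germ-free and 158.3 for the SPF array. SPF net intensities were multiplied by 0.849 so that the median of the 1471 shared probes was equal. The median log2 value of the shared probes was then -0.056 and their SD 0.403.

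miR-10a-5p, the brightest member, had a deposited spot intensity of 749 in the germ-free and 493 in the SPF sample. It was thus lower on the SPF array before any subtraction or scaling, although the blank spots of that array were brighter. The local background of this spot was lower there too, 225 against 565 on the germ-free array. Its net intensity was 621 on the germ-free array and, after scaling, 284 on the SPF array, which is 2.18-fold lower. Among the 1900 miRNA probes it ranked 248 in brightness in the germ-free and 352 in the SPF sample. Its log2 value was the 14th lowest of the 1471.

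miR-10b-5p, its near-identical paralog, read 657 in the germ-free and 435 in the SPF sample as deposited. The scaled net intensities were 528 and 235, which is 2.25-fold lower on the SPF array and the 11th lowest log2 value. The 2 miR-10 probes differed from each other by 0.042 on the log2 scale. miR-10b is known from endothelial cells and from invasive tumour cells.

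The other strand of both miR-10 precursors was at the background. miR-10a-3p read 128 in the germ-free and 161 in the SPF sample, under the floor of each. miR-10b-3p read 139 and 165, just above the germ-free floor and under the SPF floor. With the SPF value set to the floor its log2 value was bounded at -0.22 or lower. The difference in the miR-10 family therefore rests on the 5p arms alone.

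miR-196a-5p read 172 in the germ-free and 346 in the SPF sample as deposited. Its scaled net intensities of 43.9 and 159 made it 3.63-fold higher on the SPF array, the 2nd highest log2 value of the 1471 shared probes. Its brightness rank moved from 1015 to 499. The probe cannot tell which of its 2 genes, in the Hoxb and in the Hoxc cluster, the RNA came from. The germ-free net intensity of miR-196a-5p, 43.9, was close to the level set by spots without a probe, 37.2. A negative control probe, Negative Control 3, had 35.7 ± 7.55 (SD, 8 spots) in that sample. The fold and the log2 rank of miR-196a-5p rest on this low germ-free value.

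miR-196b-5p, encoded within Hoxa9, read 189 in the germ-free and 363 in the SPF sample. The scaled net intensities were 60.7 and 174, a 2.87-fold higher level on the SPF array and the 7th highest log2 value. The 2 miR-196 5p probes differed by 0.34 on the log2 scale, with miR-196a-5p the higher. Both started under the median net intensity of the shared probes, 84.6 on the germ-free array, and stood above it on the SPF array, where it was 99.6 before scaling.

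The 3p arms are the one place where the array separates the 2 genes of miR-196a. miR-196a-1-3p, made only from the gene in the Hoxb cluster, read 148 in the germ-free and 201 in the SPF sample. Its scaled net intensities were 19.8 and 36.1, a log2 value of 0.86 that stood 30th from the top. With no background taken off it was 0.16, and after local background was subtracted 0.047. miR-196a-2-3p, made only from the gene in the Hoxc cluster, read 130 and 154 and was under the floor on both arrays. The weak signal of miR-196a-1-3p was under the brighter level set by spots without a probe, a net intensity of 37.2 in the germ-free and 43.9 in the SPF sample before scaling.

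miR-196b-3p was close to 0, unlike its 5p arm. It read 175 in the germ-free and 209 in the SPF sample, with scaled net intensities of 46.5 and 42.8 and a log2 value of -0.12 (0.12 without scaling between arrays). With local background subtraction miR-196b-3p was at -0.77. The 5p arm of miR-196b was 1.30 times as bright as the 3p arm in the germ-free and 4.06 times in the SPF sample. The 3p net intensities before scaling, 46.5 and 50.4, were close to the level set by spots without a probe, 37.2 and 43.9. The contrast between the arms rests on these low values. Across the 4 detected miR-196 probes the log2 values ran from -0.12 to 1.86 with a median of 1.19. The detected miR-10 probes had a median of -1.15, which puts the family medians 2.34 apart, and the medians of the 5p arms alone were 2.84 apart.

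miR-615, from the Hoxc cluster beside group 5, gave detectable signal in both arms. miR-615-5p read 342 in the germ-free and 409 in the SPF sample, and its scaled net intensities of 214 and 213 gave a log2 value of -0.0049 (0.23 without scaling). miR-615-3p read 243 and 281, with 115 and 104 after subtraction and scaling and a log2 value of -0.14 (0.094 without scaling). Both lay within the interquartile range of the shared probes, -0.27 to 0.18. With local background subtraction miR-615-5p was at -0.30 and miR-615-3p at 0.51. The 5p probe was 1.87 times as bright as the 3p probe in the germ-free and 2.05 times in the SPF sample. The 5p sequence has 77.3% G and C, the highest of the members, and probes of different composition bind with different strength, so brightness does not rank the arms by abundance.

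**Figure D2:**
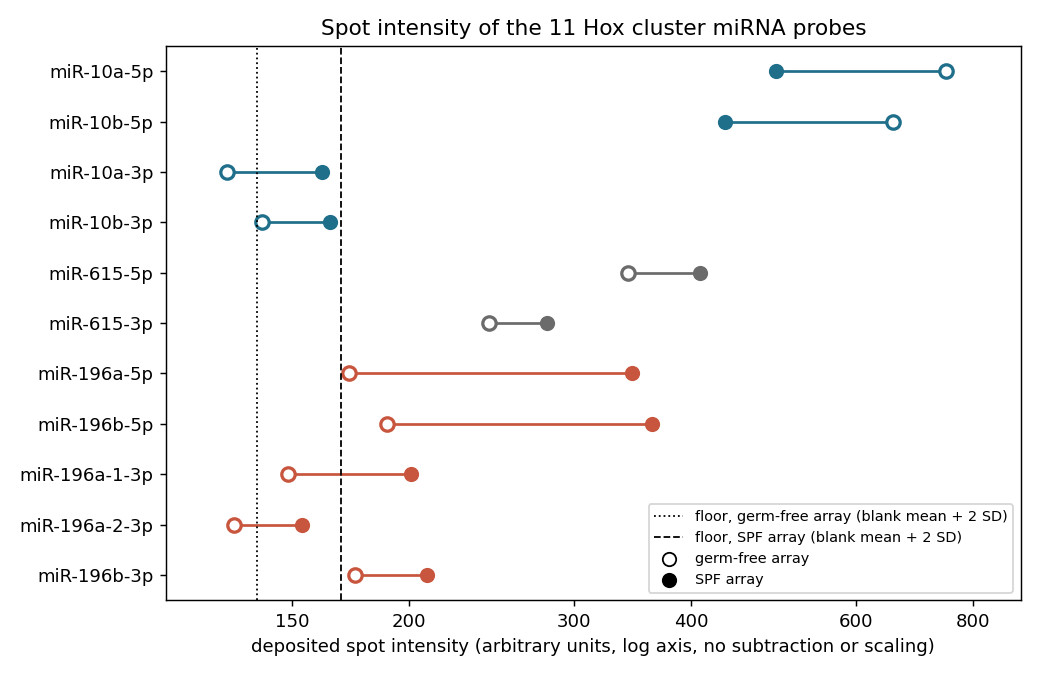
Deposited spot intensity (x axis, arbitrary units, log scale) of the 11 member probes on the germ-free array (open circles) and the SPF array (filled circles), 1 spot each, with the floor of each array as a vertical line. miR-10a-5p and miR-10b-5p are the only members with a lower deposited intensity on the SPF array, and miR-196a-5p and miR-196b-5p have the longest distance in the other direction.

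Read along the clusters, the 5p arms were ordered by neighbourhood on these 2 arrays. The miR-10 arms beside group 4 were at -1.17 and -1.13, and miR-615-5p beside group 5 was at -0.0049. The miR-196 arms, from between the 3′ ends of group 9 and the next posterior group, were at 1.52 and 1.86. The order does not extend to the 3p arms, since miR-196b-3p, from the same gene as miR-196b-5p, was at -0.12, under miR-615-5p. In the Hoxb cluster miR-10a-5p was at -1.13 and miR-196a-1-3p, under the level of spots without a probe on both arrays, at 0.86. With 5 detected 5p probes from near-identical pairs, this order rests on 3 unrelated sequences. The members were chosen with these values known, so nothing is read from the order. It did not hold with local background subtraction, where miR-615-5p at -0.30 was under miR-10a-5p at 0.064 and miR-196a-1-3p, at 0.047, was on the same side of 0 as miR-10a-5p.

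The balance between the families changed accordingly. On the germ-free array the net intensity of miR-10a-5p was 14.2 times that of miR-196a-5p and 10.2 times that of miR-196b-5p. On the SPF array the ratios were 1.79 and 1.63. For miR-10b-5p they were 12.0 and 8.70 on the germ-free array and 1.48 and 1.35 on the SPF array. Such a ratio within an array does not depend on the scaling between arrays, but it does depend on the background that is subtracted. It compares probes of different sequence, so its size within an array does not rank the miRNAs by abundance. Its change between arrays restates the log2 differences by which the members were chosen, so nothing is read from it. The germ-free ratios also rest on the low net intensities of miR-196a-5p and miR-196b-5p in that sample, 43.9 and 60.7.

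**Figure D3:**
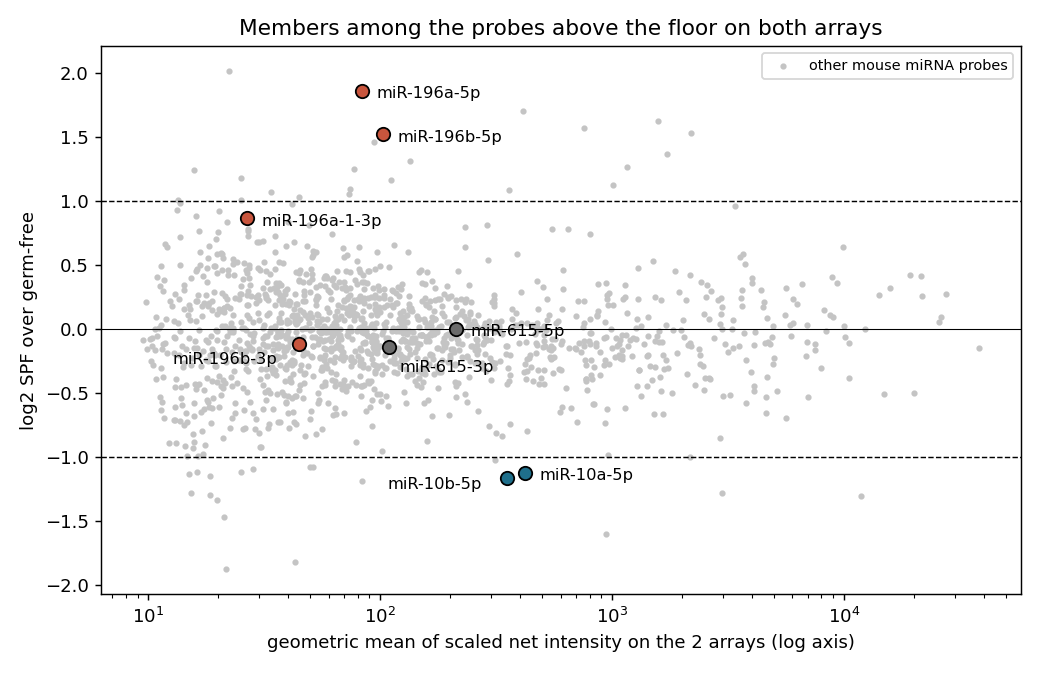
Log2 SPF over germ-free (y axis) against the geometric mean of the scaled net intensity on the 2 arrays (x axis, log scale) for the 1471 shared probes, with the 8 detected members coloured by family and dashed lines at 2-fold. The miR-10 5p arms lie under the lower line, the miR-196 5p arms above the upper line and both miR-615 arms close to 0.

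Spread within an array can be read from control probes that name no miRNA and have 8 spots each, with every spot above the floor. The probe S-Probe27 had 280 ± 20.3 (SD, 8 spots) in the germ-free and 384 ± 17.5 in the SPF sample. Its germ-free level was nearest to that of miR-615-5p, 214, and well under those of miR-10a-5p and miR-10b-5p, 621 and 528. Its spots give an SD of 0.12 on the log2 scale for a difference between single spots. Near the germ-free level of miR-196b-5p, S-Probe6 had 65.7 ± 6.77 and 65.7 ± 5.01, an SD of 0.18, and near that of miR-196a-5p, S-Probe7 had 37.7 ± 7.07 and 50.2 ± 5.38, an SD of 0.32. The log2 SPF over germ-free of the 5 control probes within the members' range lay between -0.31 and 0.22. Close to the level of miR-196a-1-3p, S-Probe2 had 27.2 ± 11.6 and 26.8 ± 4.36, an SD of 0.62. The 4 large 5p differences, from near-identical pairs, are larger than these SDs, and that of miR-196a-1-3p is 0.86 against 0.62. The members were chosen by their differences, so nothing is read from this. The SDs also leave out the choice of background, on which the direction of miR-10 depends. The spread is technical and within an array, and says nothing about differences between mice.

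The miRNAs most like a member in level and in difference were taken by distance in the plane of mean log2 net intensity and log2 ratio over the 2 arrays. For miR-10a-5p they were, nearest first, miR-10b-5p, miR-5627-3p at -0.80 and miR-5121 at -0.84. For miR-10b-5p they were miR-3962 at -1.03, miR-10a-5p and miR-5121. For miR-196a-5p the nearest were miR-6973b-3p at 1.46, miR-196b-5p and miR-222-3p at 1.25. For miR-196b-5p they were miR-6973b-3p, miR-215-5p at 1.16 and miR-182-5p at 1.31, the last being part of a cluster known from epithelial and sensory cells. The neighbours of miR-615-5p were miR-702-5p, miR-296-3p and miR-877-5p, all between -0.056 and 0.024. Those of miR-615-3p were miR-290b-3p, miR-6916-3p and miR-3547-3p, and those of miR-196b-3p were miR-341-3p, miR-214-5p and miR-3060-5p.

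With the blank mean subtracted, the closest relatives of miR-10 in sequence differed less between the arrays. The miR-10 members were chosen by their differences and these relatives by sequence, so nothing is read from that. With local background subtraction miR-10a-5p itself was at 0.064 and miR-10b-5p had no value. miR-100-5p lies at an edit distance of 3 from miR-10a-5p, with the seed ACCCGUA, and miR-99a-5p at a distance of 4. miR-100-5p had scaled net intensities of 73.8 in the germ-free and 55.7 in the SPF sample, a log2 value of -0.41. miR-99a-5p was at 0.097 and miR-99b-5p at 0.53. Of the 6 probes for miR-99 and miR-100, 4 were detected on both arrays, none at least 2-fold different in either direction, with a median of 0.28.

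The seed of miR-196 recurs in the let-7 family, shifted by 1 base: AGGUAGU starts at base 3 of let-7a-5p. It is found away from bases 2 to 8 in 11 of 1679 mature sequences, 8 of them let-7 or miR-98. Of 20 listed let-7 and miR-98 probes, 16 were detected on both arrays, 3 of them above and 13 under 0, none at least 2-fold different. Their median was -0.22 (0.014 without scaling) and their lowest value was that of let-7g-5p, -0.54. The list leaves out let-7j, at -0.65, and let-7k, at 0.54, both named here after their values were seen. The probe of let-7a-5p had net intensities of 7395 in the germ-free and, after scaling, 6376 in the SPF sample.

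Markers of some cell types also differed between the arrays, and their part in the results was not tested. In such bulk RNA, fewer cells of a type and less RNA per cell cannot be told apart. Leukocyte miRNAs were bright on both arrays, with miR-142a-5p at 5799 in the germ-free and 3681 in the SPF sample. Of 7 lymphocyte markers all were detected, 6 were under 0 and 1 was at least 2-fold lower, with a median of -0.58. Their summed net intensity went from 21365 to 9396 after scaling, a log2 value of -1.19, most of it miR-150-5p. Without miR-150-5p the other 6 markers summed to 2666 and 1844, a log2 value of -0.53. The local background of miR-150-5p in the germ-free sample, 21608, was above its spot intensity of 18828.

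Epithelial markers differed in the direction of the miR-196 5p arms. All 10 were detected, 9 of them at least 2-fold higher on the SPF array, with a median of 1.21 and a range from -0.015 for miR-375-3p to 1.62 for miR-192-5p. Their summed net intensity went from 5631 on the germ-free array to 14755 on the SPF array after scaling, a log2 value of 1.39. miR-196b-5p, at 1.52, lay within that range and miR-196a-5p, at 1.86, above it.

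Among 6 myeloid and pan-leukocyte probes 5 were detected, with a median of -0.66 and values from -1.01 for miR-142a-3p to 0.93, and miR-511-3p was under the floor on both arrays. Of 7 stromal and endothelial probes 6 were detected, 4 above and 2 under 0, with a median of 0.13 and a summed net intensity of 1543 against 1462. None of those 6 was at least 2-fold different. miR-126a-5p was above the floor in the germ-free sample alone, which bounds its log2 value at -1.38 or lower. Striated muscle had 2 of 4 probes detected, with a median of -0.041 (0.19 without scaling), and miR-1a-3p and miR-206-3p under the floor on both arrays. The neuronal list also had 2 of 4 detected, with a median of -0.36, and miR-9-5p and miR-153-3p under the floor on both.

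**Figure D4:**
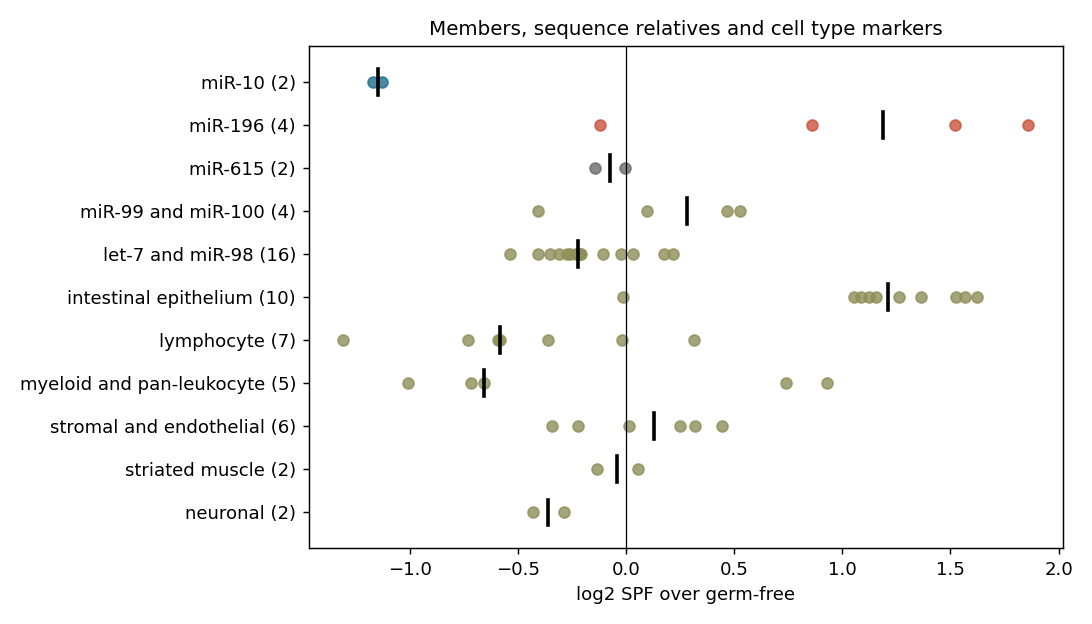
Log2 SPF over germ-free (x axis) of each probe above the floor on both arrays, by miRNA family or list, with the number of probes in brackets and the median as a black bar. The miR-10 points lie under 0. So do 6 of 7 lymphocyte, 3 of 5 myeloid and pan-leukocyte, 13 of 16 let-7 and miR-98, and 2 of 2 neuronal probes. The miR-196 5p arms lie on the side of the intestinal epithelium markers. The miR-10 points and the miR-196 5p arms lie further from 0 than any listed miR-99, miR-100, miR-98 or let-7 probe. The members were chosen by their differences, so nothing is read from this.

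The spots around the members set a limit on these values, because each miRNA has 1 spot and the local background differed between them. For miR-10b-5p the local background was 708 in the germ-free and 440 in the SPF sample, above the spot's own intensity on both. For miR-10a-5p it was 565 and 225. The difference between these backgrounds is larger than that between the spots. When local background was subtracted miR-10a-5p was at 0.064 and miR-10b-5p had no value. The direction of miR-10 thus depends on how background is removed.

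The miR-196 5p arms kept their direction in that setting, with miR-196a-5p at 2.37 and miR-196b-5p at 1.12. The spot of miR-196a-5p lies between those of miR-26a-5p, at an intensity of 6238 in the germ-free and 5276 in the SPF sample, and of the epithelial miR-192-5p, at 1027 and 3415. The spot of miR-10b-5p lies between miR-194-5p, at 1203 and 3413, and miR-155-5p, at 540 and 536. miR-196b-5p has a dimmer neighbour, miR-409-3p, at 182 and 219. The part of these neighbours in the members' values was not tested.

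**Figure D5:**
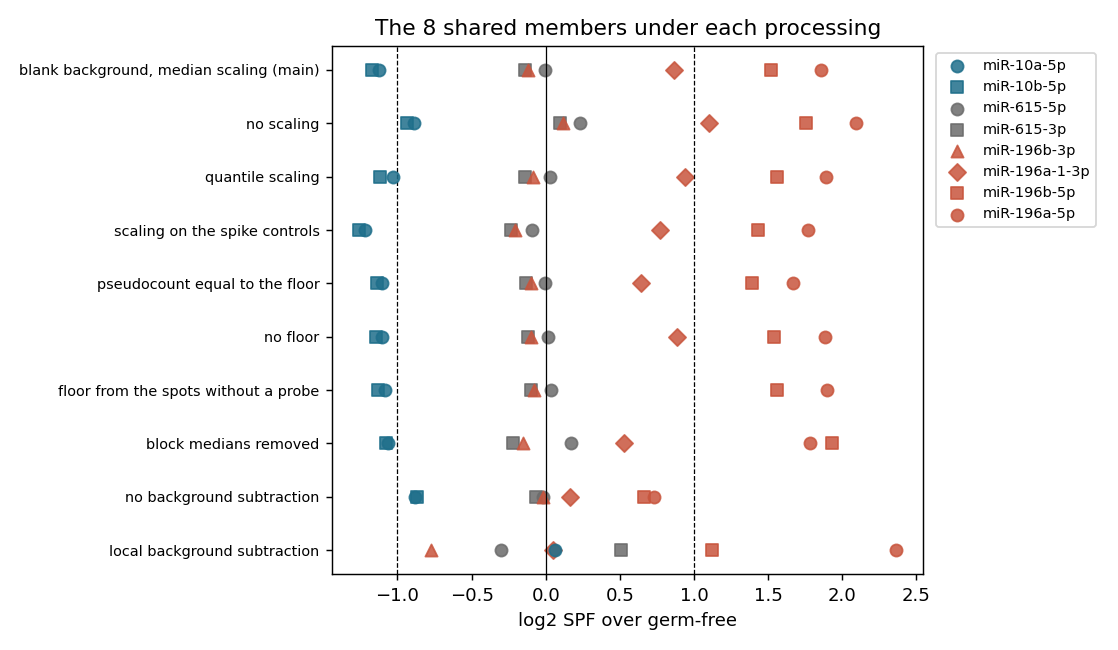
Log2 SPF over germ-free (x axis) of the 8 members above the floor on both arrays under each way of processing (y axis), with dashed lines at 2-fold; a member without a value in a setting has no point. The miR-196 5p arms stay right of 0 in all 10 settings, and the miR-10 5p arms left of 0 in all but local background subtraction, where miR-10a-5p is at 0.064 and miR-10b-5p is missing.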

How the data were processed

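Per the file headers, each deposited table gives the median intensity of the spot at 635 nm beside that of its surroundings, for 3200 spots, with scans at 3 gains. No column shows a subtraction or a scaling by the authors. The labels' protocols name Qiagen extraction and Hy5 labelling with reagents from Exiqon. Platform and scanner software: not given in the sources used here. Arrays were grouped by sample title.

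Member probes were matched by name, and none of their spots was marked as bad. The mean of the blank spots (896 germ-free, 895 SPF, without 1 marked NG) was subtracted, and the floor was that mean plus 2 SD. This gave 1539 germ-free and 1511 SPF probes above it, of 1900. For probes under it on 1 array the floor stood in. No test was run, since the number of arrays, 1 per group, limits the precision. The calculation was tested on simulated arrays in the main setting only, which does not bear on the choice of background.

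Named probes are all members, those in the lists, and the 3 nearest in level and difference to each member above the level of spots without a probe. Outside this rule, miR-26a-5p and miR-409-3p are named as adjacent spots, and let-7j and let-7k beside the let-7 list. The members, lists and alternatives were chosen with earlier results of these data known. Alternatives covered scaling, background, floor, pseudocount, block medians and fold threshold. Python 3.11.15 with pandas 2.3.3 was used.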

Additional observations from a re-analysis of the deposited data

How the results depend on the processing

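The numbers of members at least 2-fold higher and lower, 2 and 2, were both 0 when no background was subtracted. At a fold threshold of 3 they were 1 and 0. The number lower was also 0 without scaling and 0 with the local background subtracted. In that last setting the miR-10 median was 0.064, from miR-10a-5p alone at 0.064. The miR-196 median was 0.41 with no background subtracted and 0.58 with the local one, against 1.19, and the difference of the family medians was 1.29 and 0.52, against 2.34. Of the other settings, the floor from spots without a probe moved the miR-196 median most, to 1.56, and miR-196a-1-3p had no value there. The remaining shifts of the medians and of their difference were smaller. Leaving out the scaling moved the median of the shared probes from -0.056 to 0.18. Among the other members, miR-615-5p, miR-615-3p, miR-196b-3p and miR-10b-3p changed sign between settings. No paired analysis was possible because each group has 1 array.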
